A study of Mus musculus with 8 samples.

Results

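The naive-like CD4 T cells described here were 13233 of the 29350 CD4-gated cells (45.1%), and of the 77359 T cells kept (17.1%), in 8 single-cell RNA libraries of pancreatic T cells from NOD mice, which become diabetic through autoimmunity. A kept T cell had at least 500 genes detected, under 10% mitochondrial transcripts and at least 2 unique molecular identifiers (UMIs, counted molecules) over 6 T cell receptor and CD3 genes. A CD4-gated cell had at least 1 Cd4 UMI and none of Cd8a or Cd8b1. A member also had at least 1 UMI of Lef1 and of Igfbp4, and 0 UMIs of each of 9 genes that mark other T cell states: Foxp3, Ccl5, Cxcr3, Tnfrsf9, Egr2, Egr3, Ifit1, Ifit3 and Sox4. The rule was built on measured levels in these cells, so the difference between members and the other 16117 CD4-gated cells is given as a description with no test. Libraries held 1286 members in active diabetes, 2393 at onset, 1480, 1955 and 2437 in vehicle on harvest days 2, 3 and 4, and 1073, 1372 and 1237 in PPCA on the same days.

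All libraries came from pancreatic cells sorted as CD45+ CD3+ TCR-beta+ and frozen before RNA was isolated, from mice that the labels call female, with spontaneous diabetes, 3 to 4 months old, and up to 5 months in the treatment protocol. PPCA is the submitters' name for a daily pair of drugs, the MDM2 inhibitor nutlin-3 at 50 mg/kg and the WEE1 inhibitor MK-1775 (25 mg/kg). Both arms had a blood glucose of 200 to 300 mg/dl. Vehicle is the ethanol, Tween and polyethylene glycol solvent alone. Active and onset are single untreated libraries, from mice above 600 mg/dl and at 250 mg/dl, harvested on day 1. How many mice each library held is not given in the sources used here, so p-values below measure the spread between libraries. A lower level in a library can mean fewer cells with the transcript or less RNA in each.

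Naive CD4 T cells are helper T cells that have not yet met their antigen. They recirculate between blood and lymphoid tissue by way of the chemokine receptor CCR7, leave tissue by way of the sphingosine phosphate receptor S1P1 (S1pr1), and depend on interleukin-7 for survival. Transcription factors such as LEF1, TCF1 (Tcf7), KLF2 and FOXO1 keep this state, and antigen encounter replaces it with surface CD44, integrins and effector cytokines. In NOD mice they can be found in the lymphocyte infiltrates around the islets.

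Median depth of the members ran from 4176 to 6407.5 UMIs per cell, above that of the other CD4-gated cells in 8 of 8 libraries. Any 2 of the libraries shared 14 to 41 cell barcodes, of which 0 to 2 were members. Labels and transcripts also disagreed on sex, as 4 libraries went against the female label: the vehicle day 2, vehicle day 3, PPCA day 3 and PPCA day 4 members had 187 to 266 CPM (counts scaled to 1000000 UMIs of the summed members) over 4 Y-linked genes, and the other 4 at most 0.234. Each harvest day held 1 such library or 2, so a fit with this split as a further factor was run beside the main one. Removing the highest-scoring cells of a doublet caller took out 3.06% to 9.03% of members, and 9 members had more than 1 UMI of B cell or myeloid markers.

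Among genes that the rule did not name, members tended to be higher by small steps for naive genes and lower by large ones for memory genes. The rule puts CD4-gated cells with Ccl5, Cxcr3, Tnfrsf9 or Foxp3 among the other cells. These gaps thus follow in part from the rule and are no separate support for a naive state. Pdlim4, a PDZ-LIM protein of the cytoskeleton, stood at 206 CPM in active, 214 in onset, 203, 156 and 152 in vehicle on days 2, 3 and 4, and 152, 145 and 132 in PPCA on the same days. In the other CD4-gated cells it stood at 154 CPM in active, 148 in onset, 129, 102 and 103 in vehicle on days 2, 3 and 4, and 81.1, 97.1 and 65.3 in PPCA on the same days, lower in each of the 8 libraries. The mean log2 ratio of members to other cells was 0.66 ± 0.20 (SD, n = 8 libraries) for Pdlim4 and 0.19 ± 0.12 for St8sia6, which encodes a sialyltransferase. St8sia6 read 101 CPM in active, 87.3 in onset, 84.2, 79.3 and 63.1 in vehicle on days 2, 3 and 4, and 72.0, 70.6 and 64.3 in PPCA on the same days. It was highest in the 2 untreated libraries and differed little from the other CD4-gated cells, where the mean was 68.1 ± 11.9 CPM (SD, n = 8) against 77.8 ± 12.9 CPM in members.

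Of 9 homing genes compared, 3 were higher and 2 lower in members in every library, where 5.15% and 26.7% of all genes compared were. Their median log2 ratio was -0.04. The integrin chains Itgal (-0.51 ± 0.22) and Itga4 (-0.63 ± 0.19) were the lower ones. Ccr7 averaged 307 ± 63.3 CPM (SD, n = 8) in members and 264 ± 60.8 CPM in the other cells, higher in members in 8 of 8 libraries. S1pr1 and the interleukin-7 receptor gene Il7r were higher in 6 of 8, with log2 ratios of 0.10 ± 0.09 and 0.11 ± 0.11. Among transcription factors, Satb1, a chromatin organiser (0.23 ± 0.16), and Foxo1 (0.10 ± 0.04) were higher in all 8 libraries. Tcf7 (0.05 ± 0.09) and Klf2 (0.12 ± 0.09) were not. Id3 (-1.03 ± 0.40) and Ets1 (-0.12 ± 0.05) were lower in all 8. The naive T cell list of 15 genes had 10 members higher in every library, against 5.15% of the 5436 genes compared, and 0 lower in every library, against 26.7%. Its median log2 ratio was 0.25 and that of all genes compared -0.08. Its leading genes were Pdlim4, the naive T cell transcript Dapl1 (0.63 ± 0.17) and the TREM family receptor gene Treml2 (0.46 ± 0.24). In the cytokine receptor and survival list, 2 of 9 genes compared were higher in all 8 libraries, the survival gene Bcl2 (0.31 ± 0.14) and the interleukin-6 receptor gene Il6ra (0.10 ± 0.06). Another 2 were lower in all 8, the shared cytokine receptor chain Il6st (-0.13 ± 0.05) and the pro-apoptotic Bax (-0.16 ± 0.05), and the median was -0.05. Of all genes compared 5.15% were higher and 26.7% lower in all 8, so the lower count was no more than that of genes at large.

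Memory and activation genes set the members apart by far more, with 14 of 16 compared lower in every library, against 26.7% of all genes compared. Their median log2 ratio was -1.91 and that of all genes -0.08. The calcium-binding protein gene S100a4 read 3.86 CPM in active, 4.7 in onset, 5.69, 3.7 and 3.72 in vehicle on days 2, 3 and 4, and 7.06, 2.64 and 5.73 in PPCA on the same days in members. In the other CD4-gated cells it read 75.7 CPM in active, 110.3 in onset, 196, 184 and 83.6 in vehicle on days 2, 3 and 4, and 116, 90.6 and 173 in PPCA on the same days, and the 2 sets of values did not overlap. S100a6, another of that family, differed by -4.86 ± 0.65 on the log2 scale, the integrin chain Itgb1 by -2.74 ± 0.60, the interleukin-2 receptor beta chain Il2rb by -3.39 ± 0.45 and the adhesion receptor Cd44 by -1.22 ± 0.39. Crip1 was an exception, at 636 ± 87.3 CPM in members and 624 ± 68.5 CPM in the other cells.

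Of the 6 genes of the regulatory T cell list 4 could be compared and 4 were lower in members in every library, against 26.7% of all genes compared. None of the genes on that list was used by the rule, but the rule puts every CD4-gated cell with a Foxp3 UMI among the other cells. Lower levels of regulatory T cell genes in members thus follow in part from the rule and are no separate support. Ikzf2, which encodes Helios, averaged 3.71 ± 1.59 CPM (SD, n = 8) in members and 114 ± 48.1 CPM in the other cells, the largest mean gap among genes with at least 20 CPM that the rule did not use. Neuropilin 1 (Nrp1) differed by -4.22 ± 0.82 on the log2 scale, the interleukin-2 receptor alpha chain Il2ra by -3.79 ± 0.84, the neuritin gene Nrn1 by -4.22 ± 1.36 and the costimulatory receptor gene Tnfrsf4 by -2.85 ± 0.46. The folate receptor gene Izumo1r, found on anergic and regulatory cells, kept a level in members that hardly varied, 37.8 CPM in active, 38.4 in onset, 40.2, 39.8 and 34.997 in vehicle on days 2, 3 and 4, and 39.9, 36.8 and 39.6 in PPCA on the same days. It was 133 ± 44.983 CPM in the other cells, above every member library. The cytokine gene Ifng had 0.903 ± 0.819 CPM in members against 25.1 ± 32.4 CPM, the latter led by 104 CPM in the PPCA day 4 library. Genes highest in members by this ratio were few and their gaps small. They included Slpi, a protease inhibitor gene (0.86 ± 0.27), Auts2 (0.66 ± 0.21), Myo10, a myosin gene (0.47 ± 0.37), and the perforin gene Prf1 (0.45 ± 0.12), at 42.8 ± 9.67 CPM in members.

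**Figure D1:**
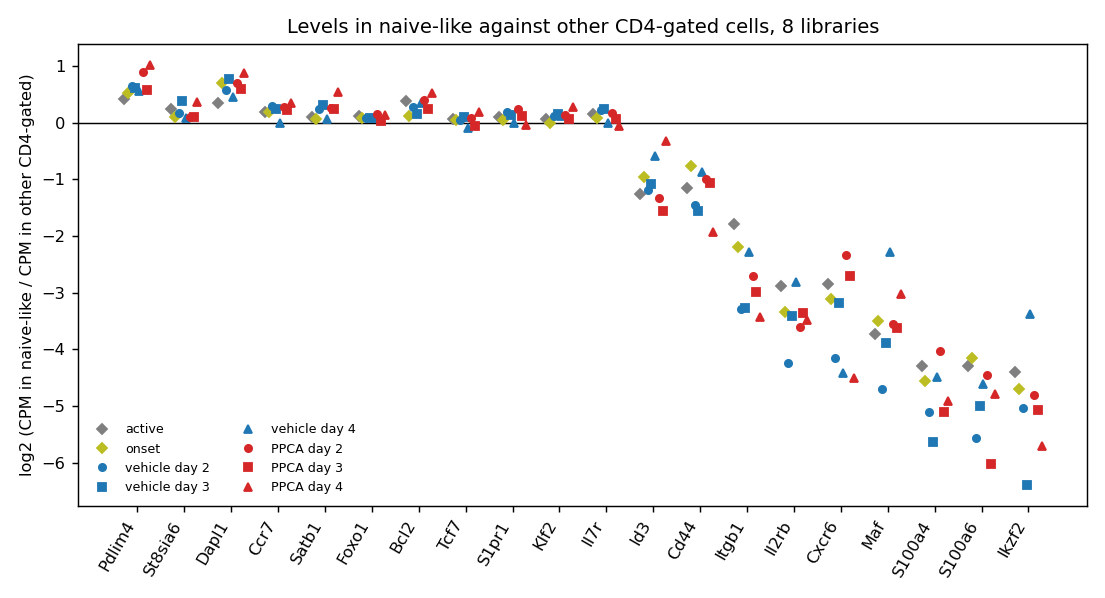
Log2 ratio of the level in naive-like cells to that in other CD4-gated cells for naive, memory and regulatory T cell genes (y axis, log2 of CPM over CPM). Each point is 1 of 8 libraries; naive genes on the left reach at most 1.02 for Pdlim4, and on the right the memory genes reach -6.03 for S100a6 and the regulatory T cell gene Ikzf2 reaches -6.39.

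The other CD4-gated cells are not a set without naive cells. Of the 18874 CD4-gated cells with Lef1 and Igfbp4, 5641 were left out by the 9 genes at 0, most often for Ccl5 (1987 cells), Ifit1 (1264 cells), Sox4 (1048 cells) and Egr3 (946 cells). A further 4339 cells had Lef1 alone, 464 Igfbp4 alone and 1045 neither, with the 9 genes at 0. Among members, 311 had exactly 1 UMI of each of the 2 genes, 9454 at least 2 of each, and 3468 lay between. Some levels changed in steps across the threshold: S100a6 was 5.35 CPM with at least 2 UMIs of each gene, 20.1 with 1 of each, 57.6 with Lef1 alone and 365 with neither. Itgb1 went the same way, 34.3, 72.0, 163 and 887 CPM. For other genes the cells with Lef1 alone were close to the members with at least 2 UMIs of each, and the cells with neither gene differed: Ccr7 was at 302, 300.2, 298 and 197 CPM and Lgals1 at 83.6, 54.9, 86.1 and 200.4 CPM.

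The same rule applied to CD8-gated cells (Cd8a or Cd8b1 detected, no Cd4) gave 7207 cells that passed every other condition. Pdlim4 and St8sia6 were far lower in them, at 19.5 ± 7.91 CPM and 8.25 ± 3.64 CPM (SD, n = 8), a gap of 3.21 and 3.34 log2 units in favour of the CD4 cells. Dapl1 (514 ± 89.3 CPM) was higher in the CD8 cells in 8 of 8 libraries, and so were Il2rb (58.8 ± 13.1 CPM) and Cxcr6, a tissue-homing chemokine receptor gene (68.1 ± 30.6 CPM). Members had 5.92 ± 1.14 CPM and 2.81 ± 1.96 CPM of the last 2 genes. These are levels in cells chosen by 1 rule and were not tested.

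The authors' deposited marker table lists 54 genes for a cluster it calls naive CD4, and 51 of them were among the genes compared here. In the libraries 35 of these were higher in members in 8 of 8 libraries, against 5.15% of all genes compared, and 1 was lower in 8 of 8, against 26.7%. The authors' deposited table gives an average log2 fold change of 1.11 for Igfbp4, 1.01 for Pdlim4, 0.67 for Lef1, 0.55 for Satb1 and 0.43 for St8sia6. That cluster's cells and the cells chosen here come from the same libraries, so the overlap is no separate support.

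Naive-like cells made up a near constant part of the vehicle CD4 cells and a varying part of the PPCA ones. Because the rule asks for detected UMIs, 2000 UMIs were drawn from each cell before Lef1, Igfbp4 and the 9 genes at 0 were read. Cells below that depth (11 to 91 CD4-gated cells per library) were dropped. The T cell, CD4 and CD8 gates were kept from all UMIs, so the set of CD4-gated cells still depends on depth. A cell that lost its UMIs of the 9 genes in the drawing can count as naive-like here. The share was then 35.4%, 35.5% and 35.3% in vehicle and 28.3%, 36.5% and 25.5% in PPCA on days 2, 3 and 4, with 31.0% in active and 37.7% in onset. Exact 95% Clopper-Pearson intervals, which cover counting error only, ran from 23.99% to 27.0% for PPCA day 4 and from 33.96% to 36.6% for vehicle day 4. Those of the 2 day 3 libraries overlapped. The PPCA share was lower on 2 of 3 days, by 5.26 ± 5.65 percentage points on average (SD, n = 3 days). An exact two-sided sign-flip test gave p = 0.5, where the design cannot go below 0.25. The unthinned shares were 47.1%, 52.1% and 49.0% in vehicle and 32.0%, 50.1% and 37.8% in PPCA, a mean difference of -9.42 points (exact sign-flip p = 0.25). On day 2 only the vehicle library had Y-linked transcripts, on day 4 only the PPCA library, and on day 3 both had them. The days with the lower thinned PPCA share were thus those on which the 2 libraries differed in these transcripts. The part of this split in the shares was not tested.

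The 9 genes that must be at 0 left out unequal parts of each library. Among CD4 cells with Lef1 and Igfbp4 at 2000 UMIs, 11.7% of the PPCA day 2 cells had an Ifit1 UMI, 5.45% of the PPCA day 3 cells and 9.35% of the active cells, against 0.68% to 2.00% in the other 5 libraries. Ccl5, a chemokine of effector cells, was found in 7.93% of these cells in PPCA day 2 and in 1.06% in PPCA day 3. Without Ifit1 and Ifit3 in the rule the mean difference was -2.85 points, with PPCA lower by 2.12 on day 2, higher by 3.41 on day 3 and lower by 9.85 on day 4. Without any of the 9 genes it was -3.42 points. Both changed sign when day 4 was left out, to 0.646 and 0.88 points. As a background, 6.51% to 12.5% of CD8-gated cells with Ccl5, which are not naive by that gene, had both Lef1 and Igfbp4 at this depth, below the naive-like share in every library.

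**Figure D2:**
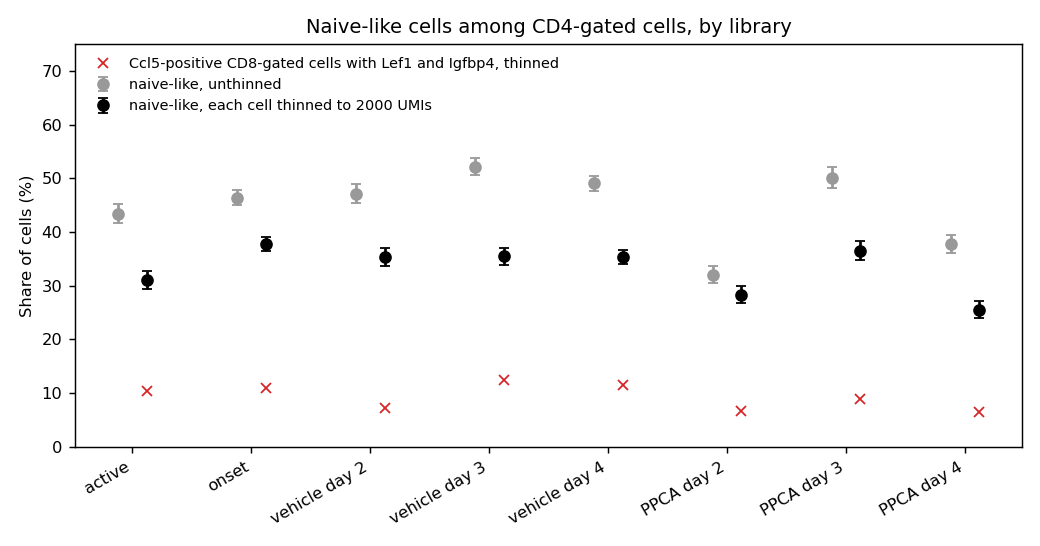
Share of CD4-gated cells that met the naive-like rule in each library (y axis, percent; bars: exact 95% intervals), unthinned in grey and with every cell thinned to 2000 UMIs in black. Crosses give the thinned share of Ccl5-positive CD8-gated cells with Lef1 and Igfbp4; the 3 black vehicle points lie between 35.3% and 35.5% and the PPCA points between 25.5% and 36.5%.

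No gene passed the test for a difference between PPCA and vehicle within the naive-like cells. UMIs of the members were summed per library and fitted with edgeR's quasi-likelihood test, with harvest day and treatment as terms and Benjamini-Hochberg adjustment over 10672 genes. At an adjusted p under 0.05 edgeR called 0 genes (0.0%), while 719 (6.74%) had an unadjusted p under 0.05, and DESeq2 called 23 (9 higher and 14 lower). In the other CD4-gated cells the same fit also called 0, of 11460 genes. Counts rose where day 4 was left out: 219 genes passed without the vehicle day 4 library and 218 without the PPCA day 4 library, while leaving out any other single library gave 1 to 9. With day as a term, either day 4 fit draws the treatment estimate from days 2 and 3 alone, so the 2 counts are not separate results. Each fit with 1 library left out had 1 residual degree of freedom. The no-filter fit called 121 and the fit with the sex-linked split as a factor 55, which leaves 1 residual degree of freedom.

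None of the genes that nutlin-3 and MK-1775 act on passed in these cells. Mdm2, the p53-induced ubiquitin ligase that nutlin-3 blocks, read 50.9, 35.8 and 50.7 CPM in vehicle and 56.5, 47.5 and 52.0 in PPCA on days 2, 3 and 4. Its log2 fold change was 0.13 ± 0.10 (SE, with an edgeR adjusted p of 0.844). Trp53, which encodes p53, read 122, 109.6 and 107 CPM in vehicle and 153, 129 and 85.3 in PPCA on days 2, 3 and 4, higher in PPCA on days 2 and 3 and lower on day 4 (0.01 ± 0.13; edgeR adjusted p = 0.989). Ccng1, a p53 target, read 43.6, 38.6 and 33.0 CPM in vehicle and 49.6, 41.9 and 26.3 in PPCA on days 2, 3 and 4 and also crossed over between days (-0.07 ± 0.12; edgeR adjusted p = 0.936). The kinase gene Wee1 was near the limit of detection, with 8 to 24 UMIs in each of these libraries. Cdkn1a, the p21 cell cycle inhibitor and a main p53 target, had 5, 3 and 37 UMIs in vehicle and 0, 1 and 41 in PPCA on days 2, 3 and 4. All but 9 of its UMIs in the 6 libraries were from day 4. The summed members held 13715429 UMIs in vehicle and 5580301 in PPCA on day 4, so near equal Cdkn1a counts are not equal levels. Relative to the totals Cdkn1a was higher in PPCA on day 4 and lower on days 2 and 3. The proliferation gene Mki67 had 1, 13 and 10 UMIs in vehicle and 0, 2 and 7 in PPCA and was too sparse to be tested. Of the p53 list 16 of 18 genes were tested: 0 passed, 7 were higher and 9 lower, with a median of -0.04 against 0.0017 over all genes. Of 11 tested cell cycle genes 0 passed, 2 were higher and 9 lower, where 50.3% of all genes were higher.

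Naive genes did not pass either. Of 15 genes of the naive T cell list 0 passed, 4 were higher (50.3% of all genes tested were) and 11 lower in PPCA, with a median log2 fold change of -0.15. Pdlim4 was lower on 3 of 3 days (-0.31 ± 0.10; edgeR adjusted p = 0.686) and St8sia6 on 2 of 3 (-0.19 ± 0.11; edgeR adjusted p = 0.805). Of the interferon response list, 13 of 13 were tested, 0 passed and 7 were higher, although 8 had an unadjusted p under 0.05, against 6.74% of all genes. Of the homing list 4 of 10 were higher and of the quiescence list 5 of 9, again with 0 passing.

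The genes with the smallest p-values are given as values. BC018473, a gene with no assigned function, read 84.8, 53.017 and 40.0 CPM in vehicle and 158, 108 and 96.1 in PPCA on days 2, 3 and 4 (0.99 ± 0.12; edgeR adjusted p = 0.077), higher in PPCA on 3 of 3 days. Neb, which encodes the giant muscle protein nebulin, read 4.08, 3.26 and 5.61 CPM in vehicle and 27.2, 7.03 and 41.6 in PPCA on days 2, 3 and 4 (2.32 ± 0.32; edgeR adjusted p = 0.118). Socs1, a feedback inhibitor of cytokine signalling, read 45.5, 30.0 and 58.8 CPM in vehicle and 69.6, 51.3 and 104 in PPCA on days 2, 3 and 4 (0.67 ± 0.10). Each of these 3, like Gstp1 (0.62 ± 0.10), was higher on every day. On the other side stood Rps15, a ribosomal protein gene, at 2232, 3629 and 2207 CPM in vehicle and 1297, 2237 and 1220.4 in PPCA on days 2, 3 and 4 (-0.85 ± 0.11; edgeR adjusted p = 0.077). Rpl23a (-0.61 ± 0.11), the chaperone gene Calr (-0.52 ± 0.10) and the mitochondrial mt-Co3 (-0.79 ± 0.15) were likewise lower on 3 of 3 days. Of 77 ribosomal protein genes tested 45 were lower and 32 higher, with a median of -0.03, where 50.3% of all genes were higher. An unadjusted p under 0.05 was found for 19 of the 77, against 6.74% of all genes. They made up 31.6% to 34.3% of UMIs in the vehicle and 32.1% to 35.7% in the PPCA members. In the other CD4-gated cells Rps15 differed by -0.84 ± 0.10 and BC018473 by 0.89 ± 0.15 (SE).

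**Figure D3:**
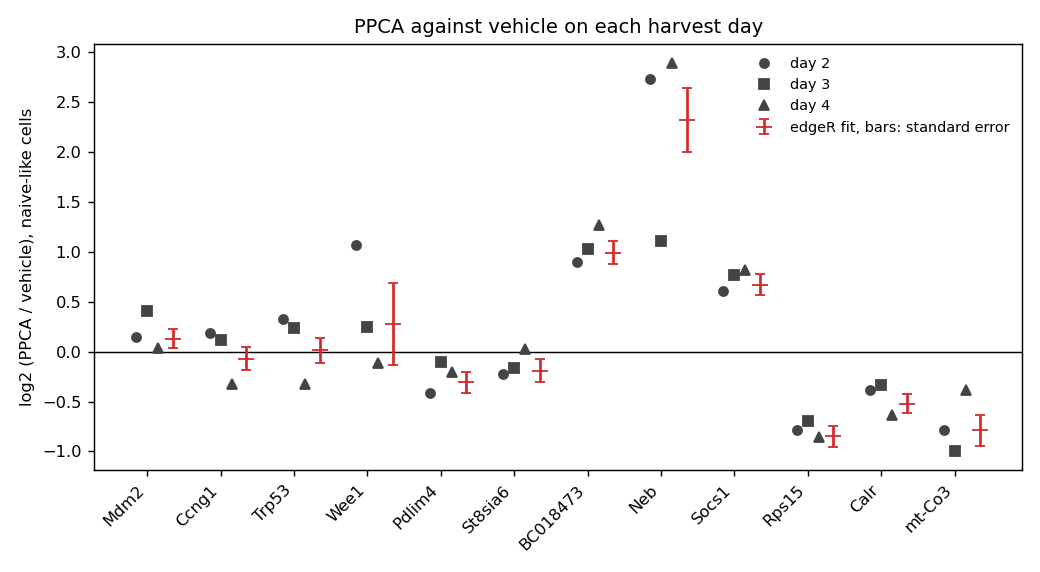
Log2 ratio of PPCA to vehicle in naive-like cells for the drug target and p53 genes, the 2 naive markers and genes with small p-values (y axis, log2; counts under 3 raised to 3). Black symbols are the 3 harvest days and red bars the edgeR estimate with its standard error; the estimates for Mdm2, Ccng1 and Trp53 are 0.13, -0.07 and 0.01, with single days from -0.33 to 0.41, and Rps15 lies below 0 on all 3 days.

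Many genes differed between harvest days in the naive-like cells. In the same edgeR fit, 1777 of 10672 genes (16.7%) passed for day 4 against the mean of days 2 and 3, 1040 higher (9.75%) and 737 lower (6.91%), and DESeq2 called 920. The count was 845 to 2103 when any 1 library was left out, with 845 without vehicle day 3 and 872 without PPCA day 3, and 2544 with the sex-linked split as a factor. Median mitochondrial share was 2.48% and 2.72% of UMIs in the day 4 members and 2.01% to 4.47% on days 2 and 3. Median depth was 4176 and 5248 against 4348 to 5547 UMIs. Their part was not tested. Each day had 1 vehicle and 1 PPCA library, and day of harvest and anything else handled by day cannot be told apart. In the other CD4-gated cells 1162 of 11460 genes passed, 762 of them higher.

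Maff, a small MAF transcription factor gene, had the highest fold change among genes with at least 10 CPM. It read 1.76 CPM in active, 2.73 in onset, 2.35, 2.29 and 47.1 in vehicle on days 2, 3 and 4, and 0.415, 2.78 and 70.4 in PPCA on the same days. Its log2 fold change was 4.98 ± 0.28 (SE, with an edgeR adjusted p of 1.13e-05). Nr4a1, the orphan nuclear receptor Nur77 that T cell receptor signals induce, read 10.8 CPM in active, 21.1 in onset, 12.1, 11.8 and 125 in vehicle on days 2, 3 and 4, and 5.61, 7.62 and 107 in PPCA on the same days (3.80 ± 0.16; edgeR adjusted p = 3.62e-06). The 2 day 4 libraries lay above each of the other 6 for both genes, with no overlap. Tnfaip3, the A20 brake on NF-kB, read 31.7 CPM in active, 82.4 in onset, 47.5, 62.3 and 615 in vehicle on days 2, 3 and 4, and 23.9, 35.2 and 805 in PPCA on the same days (4.33 ± 0.25; edgeR adjusted p = 1.23e-05). At a depth of 2000 UMIs per cell it was detected in 66.5% and 75.8% of the vehicle and PPCA members on day 4 and in 4.78% to 11.003% on days 2 and 3. Dusp5, a phosphatase of ERK, rose from 10.2 to 17.1 CPM on days 2 and 3 to 123 and 121 CPM on day 4. Dnajb9, a chaperone of the endoplasmic reticulum, rose from 19.5 to 25.5 CPM to 166 and 191 CPM. Frat2 rose from 9.76 to 35.1 CPM to 165 and 196 CPM. Ppp1r15a (GADD34), which reverses the translation block of the stress response, was at 635 and 974 CPM on day 4 and 39.0 to 156 CPM before (3.02 ± 0.38; edgeR adjusted p = 0.000897). Klf9 (3.18 ± 0.20), the signalling regulator Rgs1 (3.02 ± 0.19) and the inhibitory receptor Ctla4 (3.02 ± 0.21) complete the 10 highest.

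**Figure D4:**
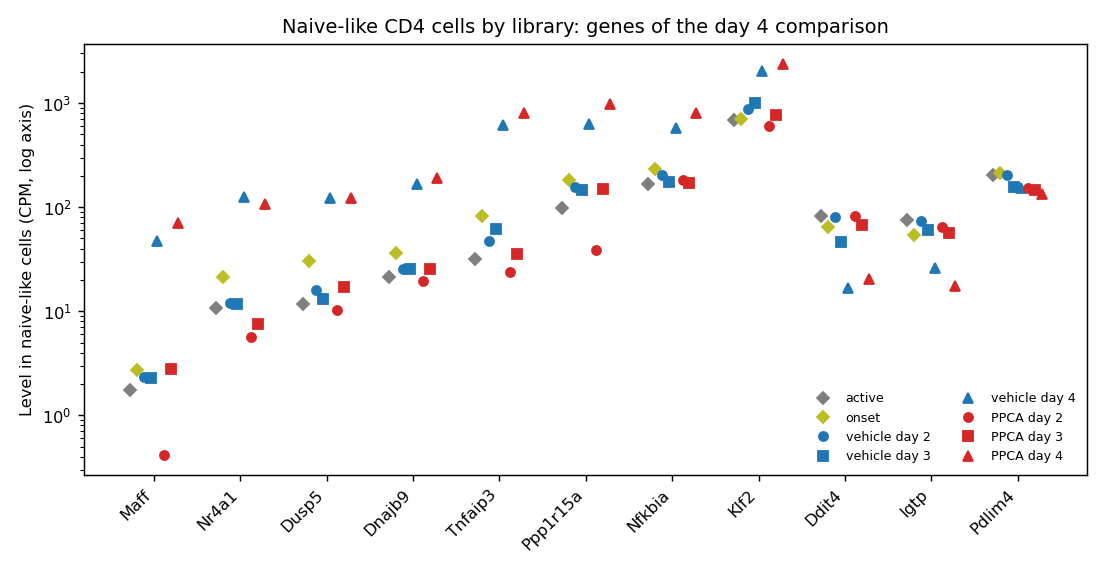
Levels of genes of the day 4 comparison in the naive-like cells of each library (y axis, CPM on a log axis; 1 point per library). The 2 triangles of day 4 lie above all other points for Maff, Nr4a1, Dusp5, Dnajb9, Tnfaip3, Ppp1r15a, Nfkbia and Klf2 and below them for Ddit4 and Igtp.

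Promoters are shown for 3 of the genes that rose most, because each holds copies of the cAMP response element or a near form of it, motifs bound by CREB and ATF factors. The sequences are the 250 bases before the transcription start, from RefSeq on build GRCm38.p6, 5′ to 3′ on the gene's strand, with TGACGTCA or TGCGTCA in capitals (either strand searched).
Nr4a1 (chr15:101266596-101266845, plus strand): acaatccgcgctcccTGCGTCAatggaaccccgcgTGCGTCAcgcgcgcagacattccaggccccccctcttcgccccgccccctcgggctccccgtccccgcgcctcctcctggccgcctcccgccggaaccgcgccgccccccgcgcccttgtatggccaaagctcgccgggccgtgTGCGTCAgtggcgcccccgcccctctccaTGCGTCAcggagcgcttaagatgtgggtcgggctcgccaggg
Ppp1r15a (chr7:45526269-45526518, minus strand): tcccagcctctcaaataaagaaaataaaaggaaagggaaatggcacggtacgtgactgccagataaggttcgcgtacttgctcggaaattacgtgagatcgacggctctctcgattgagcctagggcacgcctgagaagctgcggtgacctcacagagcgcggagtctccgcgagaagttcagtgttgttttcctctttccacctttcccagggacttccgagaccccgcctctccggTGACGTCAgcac
Maff (chr15:79347270-79347519, plus strand): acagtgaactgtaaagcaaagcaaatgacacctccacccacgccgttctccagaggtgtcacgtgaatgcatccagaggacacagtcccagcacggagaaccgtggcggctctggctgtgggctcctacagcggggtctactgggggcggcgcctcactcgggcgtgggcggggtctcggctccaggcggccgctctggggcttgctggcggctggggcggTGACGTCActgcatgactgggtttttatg
Nr4a1 holds TGCGTCA 4 times, between 235 and 36 bases before its start, and Ppp1r15a and Maff each hold TGACGTCA once, within 29 bases of the start. Over all 32851 RefSeq promoter windows of this length, 1.55% hold TGACGTCA and 1.75% hold TGCGTCA. Of the 10 genes with the highest day 4 fold change 9 were matched to a window, 2 held TGACGTCA (Maff and Ppp1r15a) and 2 held TGCGTCA (Nr4a1 and Dnajb9). Of the same 9, 1 held the AP-1 motif TGACTCA (Tnfaip3, in 4.46% of all windows) and 0 an NF-kB consensus motif (1.21% of all). These are matches of letters, and binding was not measured.

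Most early response genes rose on day 4. Of 18 genes 15 rose and 0 fell, where 9.75% of all genes rose and 6.91% fell. The median log2 fold change was 2.06 against -0.01 over all genes. When any 1 library was left out 12 to 16 rose, and with DESeq2 11 did. This list was drawn up knowing that several of its genes differed between these libraries, so its count is no independent evidence of its direction. Junb read 1015, 885 and 1965 CPM in vehicle and 373, 964 and 3712 in PPCA on days 2, 3 and 4 (2.04 ± 0.35; edgeR adjusted p = 0.00453). Nfkbia, the NF-kB inhibitor gene, read 206, 175 and 581 CPM in vehicle and 184, 169 and 806 in PPCA on days 2, 3 and 4 (2.08 ± 0.15). PPCA day 2 was the lowest of the 6 libraries for Jun, at 54.8 CPM, and for Fos, at 43.6 CPM, and the other days 2 and 3 libraries had 405 to 584 and 271 to 335 CPM. Many of these genes are also induced while tissue is dissociated and cells are sorted, and that part was not tested.

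Genes of the T cell receptor response and of quiescence were among those that rose on day 4. Of 12 receptor response genes 7 rose (Nr4a1, Nr4a3, Egr1, Cd69, Irf4, Rel and Cd200) and 1, Cd5, fell, with a median of 1.17, where 9.75% of all genes rose and 6.91% fell. Cd69, which holds T cells in tissue, read 400.3, 555 and 1024 CPM in vehicle and 103, 399 and 1219 in PPCA on days 2, 3 and 4 (2.04 ± 0.32; edgeR adjusted p = 0.00308). Of 9 quiescence genes 6 rose (Btg1, Btg2, Tob1, Txnip, Tsc22d3 and Cdkn1b) and 1, Ddit4, fell, with a median of 0.74, against the same shares of all genes. Tsc22d3, the glucocorticoid-induced leucine zipper, read 128, 141 and 330.2 CPM in vehicle and 158, 143 and 543 in PPCA on days 2, 3 and 4 (1.75 ± 0.16). Ddit4, which encodes an mTOR inhibitor, read 80.9, 45.8 and 16.7 CPM in vehicle and 82.4, 67.1 and 20.2 in PPCA on days 2, 3 and 4 (-1.72 ± 0.13).

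The naive lists were read against the 16.7% of all genes that passed on day 4. Of 11 naive transcription factors 1 rose, Klf2, a factor of T cell quiescence and egress, at 688 CPM in active, 696 in onset, 885, 1008 and 2019 in vehicle on days 2, 3 and 4, and 596, 773 and 2398 in PPCA on the same days (1.64 ± 0.17; edgeR adjusted p = 0.000291). Of the naive T cell list 0 rose and 3 of 15 fell, against 6.91% of all genes lower: Dapl1 (-0.42 ± 0.12), Treml2 (-0.47 ± 0.14) and Amigo2 (-0.46 ± 0.13). Leaving out 1 library at a time gave 0 to 3 that fell, with 0 without vehicle day 2, vehicle day 3 or PPCA day 3 and 1 without PPCA day 2. Pdlim4 differed by -0.03 ± 0.11 (edgeR adjusted p = 0.878) and St8sia6 by -0.10 ± 0.12 (edgeR adjusted p = 0.613). In the homing list 3 of 10 rose, where 9.75% of all genes did, and 2 fell: Ccr7 (0.63 ± 0.11), the bone marrow and tissue chemokine receptor Cxcr4 (2.20 ± 0.17) and the oxysterol receptor Gpr183 (1.76 ± 0.10) were higher. S1pr4 (-0.63 ± 0.11) and the LFA-1 chain Itgal (-0.56 ± 0.15) were lower. Of the survival list, the pro-apoptotic Bcl2l11 (1.31 ± 0.12) and the anti-apoptotic Mcl1 (1.02 ± 0.10) both rose and Il6st (-0.62 ± 0.11) fell.

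Of 13 interferon response genes tested, 6 fell on day 4, among them Isg15, Ifi47, Igtp, Ly6a and Zbp1, against 6.91% of all genes. Oasl2 rose and the other 6 did not pass, and the median of the list was -0.53. Between 3 and 11 fell when 1 library was left out, 3 without vehicle day 3 and 11 without vehicle day 2, and the cells with Ifit1 or Ifit3 had been removed by the rule. Igtp, an interferon-induced GTPase gene, read 73.5, 60.1 and 25.8 CPM in vehicle and 64.2, 56.8 and 17.6 in PPCA on days 2, 3 and 4 (-1.39 ± 0.12; edgeR adjusted p = 9.88e-05). Other genes that fell most were AI467606 (-2.25 ± 0.14), the NK receptor ligand gene Clec2d (-1.71 ± 0.16), Gm11361 (-1.85 ± 0.17), BC147527 (-1.76 ± 0.28), Mfsd11 (-1.73 ± 0.41) and the linker histone gene Hist1h1d (-1.51 ± 0.25). Of 16 p53 targets 4 rose (Cdkn1a, Bbc3, Btg2 and Pmaip1) and 0 fell, where 9.75% of all genes rose. Bbc3, the pro-apoptotic PUMA, was at 30.2 and 65.9 CPM in vehicle and PPCA on day 4 and at 13.5 to 17.8 CPM before (1.63 ± 0.27). Of 11 cell cycle genes 4 rose (Top2a, Pcna, Cenpa and Hmgb2) and 0 fell, against the same 9.75%, and Mki67 stayed at 13 UMIs or fewer in each library.

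Transcripts of other cells were checked beside these results. Pancreas markers (12 genes) summed to 7.26 CPM in active, 17.5 in onset, 95.3 to 362.9 on days 2 and 3 and 35.7 and 97.7 on day 4 in members, and 5 of 9 tested fell on day 4, against 6.91% of all genes, while DESeq2 called 1. The trypsinogen genes Prss2 (-1.88 ± 0.49) and Try4 (-1.72 ± 0.38) and 2210010C04Rik (-1.68 ± 0.35) were among the 10 lowest genes, and 2 to 9 pancreas markers fell when 1 library was left out, 2 without vehicle day 3, 3 without PPCA day 3 and 9 without PPCA day 2 or PPCA day 4. Their part in the other results was not tested. B cell markers summed to 178 CPM in active, 184 in onset, 196 to 213.4 on days 2 and 3 and 138.5 and 112.9 on day 4, nearly all from Ighm (109.3 to 211.7 CPM). Ighm fell on day 4 (-0.57 ± 0.11; edgeR adjusted p = 0.00769), and its part in the other results was not tested. Without vehicle day 3 it no longer passed. The other 5 B cell genes reached 1.64 to 16.4 CPM. Of the myeloid list Cst3 gave 99.8 to 132.5 CPM, while Lyz2 reached at most 2.38 CPM and Csf1r and Cd14 were at or near 0 in every library.

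The day 4 difference was then compared with that in the other CD4-gated cells, and 28 of 11524 genes (0.243%) differed between the 2 sets by the interaction test in edgeR: 22 with a higher day 4 difference in members (0.191%) and 6 with a lower one (0.0521%). Nr4a1 rose by 3.80 log2 units in members and 2.23 in the other cells, a difference of 1.46 ± 0.16 (SE; edgeR adjusted p = 0.000111). In the other cells it read 39.9, 24.2 and 158 CPM in vehicle and 37.8, 33.6 and 122 in PPCA on days 2, 3 and 4, so on days 2 and 3 members lay below them and on day 4 the 2 sets came close. Irf4, a factor induced by receptor signals (1.60 ± 0.25), Nr4a3 (0.71 ± 0.13), Ctla4 (1.35 ± 0.16), the regulator of NF-kB Nfkbid (0.79 ± 0.11) and Maf (1.37 ± 0.20) also had the higher day 4 difference in members. Maf changed by 1.64 in members and 0.41 in the other cells, where its adjusted p was 0.319 by edgeR. Tnfsf8, the ligand of CD30, went the other way: it read 42.8, 36.4 and 22.7 CPM in vehicle and 54.0, 47.6 and 26.5 in PPCA on days 2, 3 and 4 in members. It read 89.9, 97.7 and 81.8 CPM in vehicle and 114, 92.7 and 222 in PPCA on days 2, 3 and 4 in the other cells (-1.24 ± 0.17; edgeR adjusted p = 0.000732). Socs3 (-0.49 ± 0.09), the kinase gene Sgk1 (-0.42 ± 0.09) and Malt1 (-0.39 ± 0.08) also had the lower day 4 difference in members. With doublets removed 18 genes passed, 17 higher and 1 lower, and 16 of them were among the 28. At most 1 of the 6 lower ones thus still passed. The rule takes cells with Egr2, Egr3, Tnfrsf9 or Foxp3 out of the members and puts them among the other cells. This bears on the levels of receptor response and regulatory T cell genes in both sets. With the 9 genes dropped from the rule, 45 genes passed and 22 of them were among the 28.

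**Figure D5:**
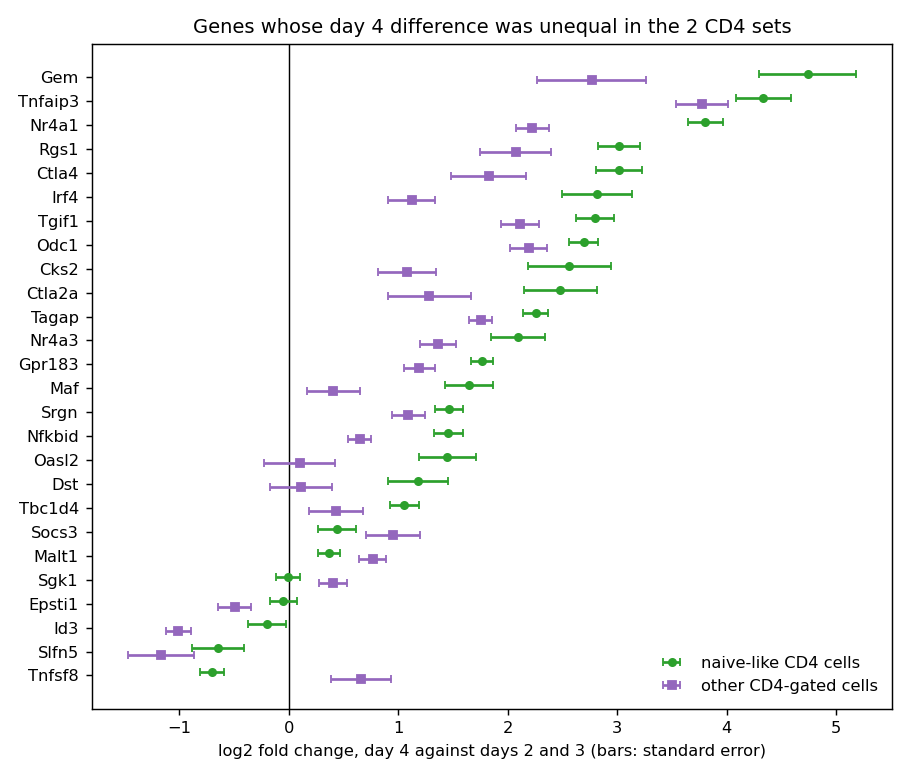
Log2 fold change of day 4 against days 2 and 3 in naive-like cells (green) and other CD4-gated cells (purple), with standard errors, for the 26 of 28 genes with an unequal day 4 difference that both fits tested. The naive-like value lies above the other in 22 of them, and for Tnfsf8 the 2 values have opposite signs.

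Differences in the PPCA effect between the 2 sets were fewer, 10 of 11524 genes (0.0868%), 3 higher in members (0.026%) and 7 lower (0.0607%). The 7 included 2 of the 13 genes of the interferon list, Isg15 (-0.81 ± 0.14) and Rtp4 (-0.94 ± 0.17), and all 13 of that list had a lower PPCA effect in members, where 48.1% of all genes had a higher one. The others were Iigp1 (-0.61 ± 0.11), Irgm1 (-0.55 ± 0.10), Lgals3bp (-0.59 ± 0.11) and Slfn5 (-0.44 ± 0.08), and Tbc1d4, a GTPase activator (-0.95 ± 0.15). Isg15 read 27.1, 22.2 and 16.8 CPM in vehicle and 64.6, 36.3 and 14.9 in PPCA on days 2, 3 and 4 in members. It read 46.1, 34.8 and 23.028 CPM in vehicle and 197, 125 and 21.4 in PPCA on days 2, 3 and 4 in the other cells, highest in both on PPCA day 2. The rule takes cells with Ifit1 or Ifit3 out of the members and puts them among the other cells, and without the 9 genes in the rule 3 genes passed, 0 of them among these 10. Coro2a, a coronin of the actin skeleton, read 18.8, 19.3 and 11.5 CPM in vehicle and 38.6, 35.7 and 82.1 in PPCA on days 2, 3 and 4 in members. It read 30.0, 31.0 and 18.0 CPM in vehicle and 39.5, 34.0 and 81.1 in PPCA on days 2, 3 and 4 in the other cells (0.68 ± 0.11; edgeR adjusted p = 0.00775). Cd74 and Igkc, transcripts of B cells and antigen-presenting cells, had the most member UMIs on PPCA day 2, 62 and 43 against 8 to 29 and 1 to 9 in the other 5 vehicle and PPCA libraries. Without PPCA day 2 the difference for Cd74 went from 2.79 to 1.90 and still passed (edgeR adjusted p = 0.0377), and that for Igkc went from 3.55 to 1.16 and did not (edgeR adjusted p = 1). Without vehicle day 2 Igkc was at 1.19 and did not pass either. With doublets removed 4 genes passed, all among the 10, but 3 were higher and 1 lower, so that 6 of the 7 lower ones no longer passed. With cells of more than 1 B cell or myeloid UMI removed 8 passed, 1 higher and 7 lower. At most 1 of the 3 higher ones was thus kept in that setting.

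Active and onset diabetes are 1 library each, so their naive-like cells were compared by values only, with intervals that cover counting error. Of 2683 genes with at least 50 CPM in either, 5 were at least 2-fold higher in active (0.186%) and 11 at least 2-fold lower (0.41%). The heat shock gene Hsph1 had 54.9 CPM (95% Poisson interval 50.0 to 60.1) in active and 193 CPM (186 to 201) in onset, and Fos had 156 CPM (95% Poisson interval 147 to 164) in active and 451 CPM (439.9 to 463) in onset. Also lower in active were Gm10076 (331 and 937 CPM), mt-Atp8 (274 and 767 CPM) and mt-Nd4l (261 and 714 CPM). Higher in active were Hnrnpa0, an RNA-binding protein gene (356 and 127 CPM), Gm12840 (321 and 140.0 CPM), the poly(A)-binding gene Pabpn1 (147 and 68.7 CPM), AY036118 (5366 and 2596 CPM) and Purb (161 and 78.9 CPM). Interferon response genes Rtp4 (27.0 and 8.19 CPM), Isg15 (48.3 and 29.7 CPM) and Ifi27l2a (749 and 461 CPM) were higher in active as well. In that library 9.35% of Lef1 and Igfbp4 cells had been left out for Ifit1, against 1.18% in onset, at 2000 UMIs per cell. No gene of the naive lists differed by 2-fold: Pdlim4 had 206 and 214 CPM, St8sia6 101 and 87.3 CPM and Tcf7 484 and 439.8 CPM. The widest gaps in those lists were 1.41-fold for Nsg2 (88.9 and 63.1 CPM) and 1.40-fold for Klf3 (182 and 129.9 CPM), with intervals that did not overlap.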

How the data were processed

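RNA of single T cells was counted in 8 libraries, and the deposited matrices hold raw counts of UMIs for 32285 features, 78 of them with a repeated symbol. The authors' matrices came from Cell Ranger, version 6.0.0 per the file headers and 6.1.2 per the submitters' processing notes; no source used here names the genome build. The authors' deposited marker table gives log2 fold changes and p-values per cluster, of which the p-values were not used.

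Members were selected, thinned with seed 1 and summed per library with Python 3.11.15 and scanpy 1.11.5; the libraries held 7023 to 13129 barcodes and the summed members 4816481 to 13715429 UMIs. The members and gene lists were chosen with earlier results of these data known. Sums were fitted with edgeR 4.0.16 in R 4.3.3 (quasi-likelihood, TMM scaling, low-count filter, Benjamini-Hochberg adjustment, 2 residual degrees of freedom), and the 12 sums of both cell sets for interactions, and DESeq2 1.42.0 was an alternative. Vehicle and PPCA libraries of a harvest day share a number and deviated together (correlations of 0.305, 0.392 and 0.556 over 10672 genes), so day was a block; vehicle day 2 also correlated with PPCA day 3 (0.382). Genes named are list members that passed, fixed markers and drug-target genes, and the highest and lowest fold changes above 10 CPM with the same sign in every pairing. Genes singled out otherwise, such as Ets1, Il6ra and Cd74, were chosen after their values were seen. With its own threshold Scrublet called 0 to 2 doublets in each of 7 libraries (744 in PPCA day 4), so the highest-scoring cells, 0.8% per 1000 barcodes, were removed as an alternative. On simulated counts the PPCA fit recovered 95.0% of 2-fold changes with 5 false calls among 10592 genes, and the PPCA interaction fit 83.0% with 5 among 11415. The simulated counts had no difference between days and the same spread for every gene, and changes were put only in genes above a count limit. These rates therefore need not hold for the real libraries, and 0 calls there do not show that 2-fold changes were absent. Some genes are not reported here.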

Additional observations from a re-analysis of the deposited data

Results flagged for a closer look

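The PPCA and day 4 effects both differed between naive-like and other CD4-gated cells by a test of the difference itself, the interaction term in edgeR with Benjamini-Hochberg adjustment. The effect of PPCA differed for 10 genes. Of the named ones the difference was 0.68 on the log2 scale for Coro2a, -0.95 for Tbc1d4, -0.94 for Rtp4, -0.81 for Isg15, -0.61 for Iigp1, -0.59 for Lgals3bp, -0.55 for Irgm1 and -0.44 for Slfn5. Each had the same sign on 3 of 3 days. The rule moves cells with Ifit1 or Ifit3 from the members to the other cells, and without the 9 genes at 0 none of the 10 passed in edgeR (3 other genes did), and Slfn5 was 0.14.

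The day 4 difference was unequal for 28 genes. It was higher in members by 1.46 for Nr4a1, 1.37 for Ctla2a, 1.37 for Maf, 1.35 for Ctla4, 1.12 for Rgs1, 0.79 for Tbc1d4, 0.79 for Nfkbid, 0.76 for Id3, 0.71 for Nr4a3 and 0.67 for Tgif1. It was lower in members by the values -1.24 for Tnfsf8, -0.49 for Socs3, -0.42 for Sgk1 and -0.39 for Malt1. All of these kept their sign in 4 of 4 pairings of a day 4 library with an earlier one of its arm. With doublets removed 18 genes passed in edgeR, 17 higher in members and 1 lower, so at most 1 of the lower genes named here still passed. The rule moves cells with Egr2, Egr3, Tnfrsf9 or Foxp3 from the members to the other cells, and without the 9 genes at 0, 22 of the 28 passed.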

How the results depend on the processing

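Counts of genes past the threshold moved with several choices, and the cause was not tested. For PPCA against vehicle, 0 passed in edgeR, with DESeq2 size factors, without doublets and without the replicate block (0 genes), 121 without the low-count filter, 23 with DESeq2, 55 with the sex-linked split as a factor, and 1 to 219 with 1 library left out. For day 4 the count was 920 with DESeq2, 2389 without the filter, and 845 to 2103 with 1 library left out. The unequal PPCA effect was found for 45 genes without the filter, 4 without doublets, 3 without the 9 genes at 0, 5 with no replicate block, and 18 to 79 with 1 library left out. The unequal day 4 effect was found for 84, 18 and 45 genes under the first 3 of these and for 43 to 166 with 1 library left out. The share difference with all 3 days was below 0 in the settings run, from -9.81 points unthinned without the 9 genes at 0 to -2.85 at 2000 UMIs without Ifit1 and Ifit3 at 0. With 1 day left out it was -8.43 to -2.99 at 2000 UMIs, but without day 4 it was 0.88 without the 9 genes and 0.646 without Ifit1 and Ifit3.

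Some single genes changed sign. For PPCA, Cdkn1a was -2.17 to 1.19 with 1 library left out, below 0 without a day 4 library, and -1.33 with the sex-linked factor, Ccng1 -0.186 to 0.042, Trp53 -0.131 to 0.171 and -0.0073 without the filter, and Wee1 -0.028 to 0.499. For day 4, Pdlim4 was -0.118 to 0.063 with 1 library left out and 0.0028 with the sex-linked factor, and St8sia6 was -0.265 to 0.079 with 1 library left out. Without the 9 genes at 0, the unequal PPCA effect was 0.14 for Slfn5 and -0.36 for Cd74, and the unequal day 4 effect -0.038 for Oasl2 and -0.12 for Slfn5. Precision is lowest for genes with few UMIs in the members, such as Mki67 with 13 or fewer in each library.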
